A study of Mus musculus with 2 samples.

Results

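Lymph node homing and egress receptors are the surface molecules that bring T cells into a lymph node, place them inside it and let them leave. The 7 genes followed here are Ccr7 and Selplg for entry, Gpr183 and Gpr18 for positioning, and S1pr1, S1pr4 and Cd69 for egress. They were taken from the deposited value table by their gene symbol in the platform annotation. Of the 7, 6 had a named probe, 1 probe each, out of 8116 named genes on the table, and S1pr1 had none and was not analysed here. The study compared 1 sample of type 1 invariant NKT cells, T cells of restricted receptor diversity that recognise lipids on CD1d. Against it stood 1 sample of conventional CD4 T cells, which recognise peptides on MHC class II. Both were sorted, with magnetic beads or by fluorescence, from lymph nodes of female mice kept free of specific pathogens; strain, age, genotype and any pooling of animals were not given in the labels. Total RNA was hybridised to 1 Illumina bead array per sample. With 1 array per group the groups could not be tested against each other, and the number of arrays limits the precision of every value below.

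A naive T cell leaves the blood across high endothelial venules, where selectin contacts slow it and CCR7 senses CCL19 and CCL21 and triggers firm arrest. Inside the node, CCR7 holds it in the T cell zone, and GPR183, which senses oxysterols, draws cells to the border of the follicles and the outer T cell zone. It leaves by following sphingosine 1-phosphate (S1P), which is rich in lymph and poor in tissue, through S1P receptors, and CD69 delays that exit by binding S1PR1 and pulling it off the surface.

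The 2 deposited tables disagree on the invariant NKT sample, which touches every result below. The value table holds log2 signals of 11866 probes, and the non-normalized table holds intensities of 25697 probes. Across probes, the rank order of the conventional CD4 T values was that of its non-normalized column (Spearman's rho 1.0). For the invariant NKT sample the rho between its 2 columns was 0.822. Its value column followed the non-normalized column of the conventional CD4 T sample as closely, with a rho of 0.823. Values below come from the value table, which names each column by its sample. Markers were then set against the labels. The 11 measured T cell identity genes were detected in both libraries with a median difference of 0.09. Of the 13 invariant NKT markers, 12 were 2-fold or more higher in the NKT-labelled library. The lists were chosen with earlier results of these data known, so these counts are no independent check of the labels. Cd4 itself had a log2 signal of 8.997 in the NKT-labelled library and 9.61 in the CD4-labelled library. Cd8b1, a chain of the CD8 co-receptor, had 9.33 in the NKT-labelled library and 15.60 in the CD4-labelled library. The Y-linked Eif2s3y, in samples labelled female, measured 8.998 in the NKT-labelled library and 11.55 in the CD4-labelled library. Kdm5d and Uty, also Y-linked, were detected in the CD4-labelled library alone. Kdm5d had 7.61 in the NKT-labelled library and 9.46 in the CD4-labelled library. Uty had 7.63 in the NKT-labelled library and 8.35 in the CD4-labelled library. Cd8b1, the Y-linked genes and the hepatocyte markers given below do not match the labels. The samples are therefore called the NKT-labelled library and the CD4-labelled library from here on, and every direction rests on those labels.

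In the value table Ccr7 and both positioning receptors stood apart from the other entry gene and from the egress genes. Ccr7, Gpr183 and Gpr18 were 2-fold or more lower in the NKT-labelled library, and Selplg, S1pr4 and Cd69 were less than 2-fold apart. No member was 2-fold or more higher. Among the 7272 genes detected in 1 or both libraries, 11.1% were 2-fold or more lower, 10.2% were 2-fold or more higher and 78.7% were less than 2-fold apart. The members' median log2 difference, invariant NKT minus conventional CD4 T, was -1.24, and that of all detected genes was -0.07. Detected means at or above a log2 signal of 7.83, the lowest signal of the CD4-labelled library with a detection p under 0.01. That level was also applied to the NKT-labelled library. The deposited detection p-values of that sample were not used for it, because its value column does not follow its non-normalized column. The only error that can be given is the disagreement between probes of a gene. Its SD was 0.59 on the log2 difference, over 1436 genes with a pair of detected probes, and it covers neither animals, sorts nor arrays. A lower signal from a sorted population can come from fewer cells that carry the transcript or from less transcript per cell, and these cannot be told apart.

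**Figure D1:**
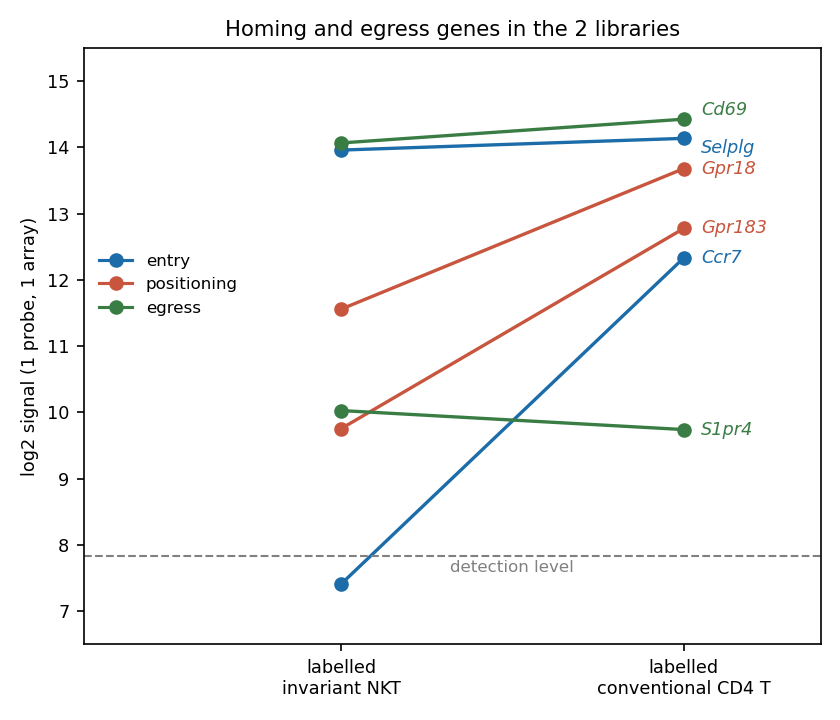
Log2 signal of the 6 measured homing and egress genes (y axis, 1 probe and 1 array per point) in the NKT-labelled library and the CD4-labelled library (x axis), coloured by role, with the detection level of 7.83 dashed. Ccr7 lies below the detection level in the NKT-labelled library, the lines of Gpr183 and Gpr18 run to clearly higher signals in the CD4-labelled library, and those of Selplg, Cd69 and S1pr4 are nearly flat; the height of a line does not compare genes, because probes differ in brightness.

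Ccr7, the receptor for CCL19 and CCL21 (probe ILMN_2821118), had a log2 signal of 7.41 in the NKT-labelled library and 12.33 in the CD4-labelled library. The first value lies below the detection level, so only a bound can be given. Ccr7 was at least 22.6-fold lower in the NKT-labelled library, a log2 bound of 4.50. Markers of naive T cells, a list that holds Ccr7, were also lower. Of its 11 genes 9 had a named probe, 4 were detected in the NKT-labelled library and 9 in the CD4-labelled library, and 8 were 2-fold or more lower. Their summed linear signal was 26019 in the NKT-labelled library and 89925 in the CD4-labelled library. Satb1 made up most of the NKT-labelled sum, with log2 signals of 14.38 in the NKT-labelled library and 14.86 in the CD4-labelled library. It was the 1 gene of that list less than 2-fold apart. The part of that list in the Ccr7 value was not tested.

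Selplg encodes PSGL-1, the ligand of P-selectin, which in mice also binds CCL19 and CCL21 (probe ILMN_2820893). Its log2 signal was 13.96 in the NKT-labelled library and 14.14 in the CD4-labelled library. The difference of -0.18 is smaller than the SD between probes of a gene, and it turned to 0.13 when differences were centred on housekeeping genes. Of the detected genes, 81.2% were at least as far apart.

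Gpr183, the oxysterol receptor also known as EBI2 (probe ILMN_1220101), had a log2 signal of 9.76 in the NKT-labelled library and 12.78 in the CD4-labelled library. It was detected in both and was 8.12-fold lower in the NKT-labelled library, with a difference of -3.02 that 1.28% of detected genes reached in either direction. Gpr18, a lymphocyte receptor for which several lipid ligands have been proposed (probe ILMN_1213809), measured 11.56 in the NKT-labelled library and 13.68 in the CD4-labelled library. It was 4.35-fold lower in the NKT-labelled library, a difference of -2.12 that 3.30% of detected genes reached. Both positioning receptors were thus lower by several times the SD between probes of a gene, yet remained clearly above the detection level.

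Gpr183 and Gpr18 are neighbouring genes on mouse chromosome 14, and both lie within the bounds of Ubac2, an endoplasmic reticulum protein gene, in the RefSeq annotation of GRCm38.p6. Ubac2, named here for its position, had a log2 signal of 12.14 in the NKT-labelled library and 12.20 in the CD4-labelled library, a difference of -0.06. Dock9, the coding gene on the other side of Gpr18, was below the detection level in both libraries. The low values of the receptor pair were thus not shared by the gene around them.

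The 250 bases before the start of each receptor gene are shown because Gpr183 and Gpr18 were lower together while S1pr4 was not. They were searched on both strands for the KLF core CCACCC and the FOXO core GTAAACA, letters bound by the families of Klf2 and Foxo1, whose values follow below. Capitals mark a match. All 3 are RefSeq sequences of GRCm38.p6 on the minus strand, printed 5′ to 3′, at chr14:121965194-121965443 for Gpr183, chr14:121915889-121916138 for Gpr18 and chr10:81500138-81500387 for S1pr4. Entries matched 3 of the 7 genes.
Gpr183: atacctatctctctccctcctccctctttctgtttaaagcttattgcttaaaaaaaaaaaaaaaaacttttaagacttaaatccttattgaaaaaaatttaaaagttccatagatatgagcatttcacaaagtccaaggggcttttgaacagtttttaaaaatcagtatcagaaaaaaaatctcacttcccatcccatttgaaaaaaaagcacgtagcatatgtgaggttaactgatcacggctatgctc
Gpr18: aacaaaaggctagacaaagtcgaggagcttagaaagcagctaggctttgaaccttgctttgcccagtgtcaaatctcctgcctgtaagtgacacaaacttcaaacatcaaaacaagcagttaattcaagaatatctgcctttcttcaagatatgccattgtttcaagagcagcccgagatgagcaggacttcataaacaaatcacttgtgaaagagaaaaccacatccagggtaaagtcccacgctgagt
S1pr4: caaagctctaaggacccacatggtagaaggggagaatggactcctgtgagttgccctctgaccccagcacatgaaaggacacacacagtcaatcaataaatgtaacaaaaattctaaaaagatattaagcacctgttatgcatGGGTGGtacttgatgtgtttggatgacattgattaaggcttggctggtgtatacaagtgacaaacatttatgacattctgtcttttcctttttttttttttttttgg
The KLF core occurs once before S1pr4, as its reverse complement GGGTGG, and its letters are absent from the windows before Gpr183 and Gpr18. The FOXO core is in none of the 3 windows. Over 32851 promoters in the table, 28.1% hold the KLF core and 3.17% the FOXO core in a window of this length. The GC content was 32.0% before Gpr183, 42.4% before Gpr18 and 38.8% before S1pr4.

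S1pr4, a receptor for S1P found mainly on blood cells and lymphocytes (probe ILMN_2839479), had a log2 signal of 10.03 in the NKT-labelled library and 9.74 in the CD4-labelled library. The difference of 0.29 is below the SD between probes of a gene, and 69.7% of detected genes were at least as far apart. Cd69, an early activation antigen that takes S1PR1 off the surface (probe ILMN_1218240), had 14.07 in the NKT-labelled library and 14.43 in the CD4-labelled library. The difference of -0.36 is again below that SD, and 62.5% of detected genes were at least as far apart. The Cd69 signal was high above the detection level in both libraries. Immediate early and sort stress genes were shifted beside it. Of 15 with a named probe, 15 were detected in the NKT-labelled library and 13 in the CD4-labelled library, 8 were 2-fold or more higher and 1 was lower. Their summed linear signal was 213059 in the NKT-labelled library and 95233 in the CD4-labelled library. Their part in the Cd69 value was not tested.

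**Figure D2:**
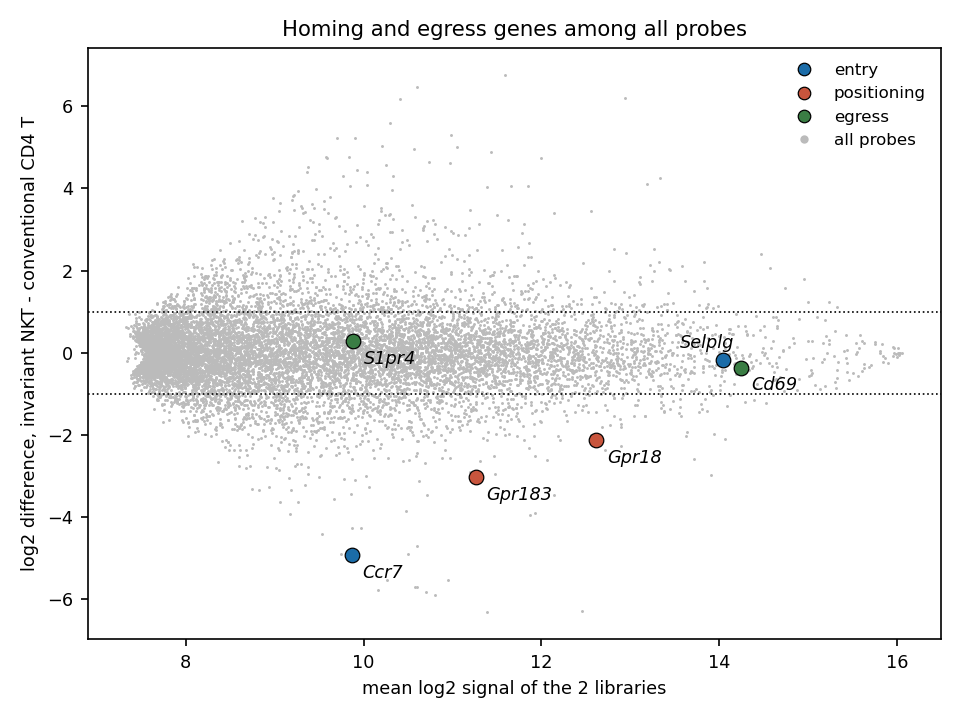
Log2 difference, invariant NKT minus conventional CD4 T (y axis), against the mean log2 signal of the 2 libraries (x axis) for all 11866 probes in grey, with the 6 measured homing and egress genes coloured by role and 2-fold marked by dotted lines. Ccr7, drawn at its measured -4.92 although its lower signal is below the detection level, Gpr183 at -3.02 and Gpr18 at -2.12 lie toward the lower edge of the cloud at their brightness, and Selplg, Cd69 and S1pr4 lie within the 2-fold lines.

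Other genes of lymph node traffic came from lists chosen by function. Outside the members, 96 genes were listed, 66 had a named probe and 62 were detected in 1 or both libraries. Of these, 14 were 2-fold or more lower and 10 were 2-fold or more higher in the NKT-labelled library, or 22.6% and 16.1% of them, where all detected genes gave 11.1% and 10.2%. Their median difference was -0.10, near that of all detected genes. Lists share some genes and hold the members too.

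In the entry list 4 of 9 detected genes were 2-fold or more lower and 2 were higher. Cxcr4, the receptor for CXCL12, measured 10.41 in the NKT-labelled library and 11.89 in the CD4-labelled library, a difference of -1.48. Itgb7, the chain that pairs with alpha-4 in gut homing, differed by -1.02. In the other direction Cd44, a receptor for hyaluronan that is high on memory T cells, was higher by 2.08 at its brightest probe, while its other 2 probes were below the detection level in both libraries. Itgb1, the beta-1 integrin chain, was detected in the NKT-labelled library alone at the brighter of its 2 probes, at least 2.86-fold higher. The other probe differed by 0.41. Of the 8 measured genes that build selectin ligands, 1 was 2-fold or more higher, the sialyltransferase gene St3gal6 at 1.27, and 0 were lower. St3gal4, a sialyltransferase gene, differed by 0.05. Gcnt1, whose product acts on the sugars that PSGL-1 carries, was detected in the NKT-labelled library alone, with a bound under 2-fold.

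Chemokine receptors signal through Gi proteins. In the signalling list 2 of 13 genes were 2-fold or more higher and 2 were lower. The Gi alpha chain gene Gnai2 differed by -0.70, the gamma chain gene Gng2 by 1.44 and 0.14 at its 2 probes, the kinase gene Stk4 by -1.41 and Sharpin, whose product restrains integrin activation, by -1.96. Among 10 genes that shut receptors down, 1 was higher and 1 lower. Rgs1, which dampens Gi signals, was higher at all 3 probes, by 1.17, 1.69 and 2.14. Rgs10, another member of that family, measured 9.98 in the NKT-labelled library and 13.89 in the CD4-labelled library, a difference of -3.90. The arrestin gene Arrb2 differed by 0.04, and the receptor kinase gene Grk6 by 0.77 and -0.50 at its 2 probes.

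The positioning list had 4 of 11 detected genes 2-fold or more lower and 0 higher. Besides Gpr183 and Gpr18 these were Cxcr5, the receptor that leads cells into follicles, and Gpr171, a receptor of lymphocytes. Cxcr5 was below the detection level in the NKT-labelled library at all 3 probes, and at least 3.70-fold lower at the brightest. Gpr171 had 10.50 in the NKT-labelled library and 12.47 in the CD4-labelled library, a difference of -1.98. P2ry10 at -0.63 and Gpr132 at 0.11, receptors for lysophospholipids and related lipids, were less than 2-fold apart. Of the enzymes that make or break the GPR183 ligand, 1 of 3 with a named probe was detected and it was less than 2-fold apart. Ch25h was below the detection level in both libraries and Cyp7b1 was not analysed here.

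In the egress list 3 of 8 detected genes were 2-fold or more lower and 0 higher, and all 3 were transcription factor genes. Klf2, which drives S1pr1 in T cells, reached 12.42 in the NKT-labelled library and 15.39 in the CD4-labelled library on the log2 scale, a difference of -2.97. Foxo1, which acts upstream of Klf2 and Ccr7, had 10.54 in the NKT-labelled library and 12.19 in the CD4-labelled library, a difference of -1.65. Klf3, a relative of Klf2 that represses transcription, differed by -1.35. S1pr2, an S1P receptor that opposes migration, differed by 0.33, close to S1pr4. Of 3 detected genes of S1P metabolism 1 was 2-fold or more lower. Sgpl1, the lyase that destroys S1P, differed by -1.09 and -0.69 at its 2 probes, and Sphk2, a kinase that makes it, by -0.66. S1pr3, S1pr5 and Sphk1 were not analysed here.

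In the list of effector homing and tissue residency 5 of 8 genes were 2-fold or more higher and 2 were lower. The 5 include Rgs1 and the heat shock gene Hspa1a, which are not homing receptors. Cxcr3, a receptor for inflammatory chemokines, measured 12.86 in the NKT-labelled library and 9.73 in the CD4-labelled library, a difference of 3.12. Cxcr6, the CXCL16 receptor known from NKT cells of mouse liver, had 9.94 in the NKT-labelled library and 8.41 in the CD4-labelled library, a difference of 1.52. Itgae, the CD103 chain, was at least 49.0-fold lower at its brightest probe, and the differences of its 6 probes ranged from -5.71 to -1.08. Ccr6, a receptor for CCL20, was below the detection level in the NKT-labelled library and at least 1.93-fold lower. Its place among the 2 lower genes thus rests on its measured difference of -1.64, as the bound is under 2-fold. Itgae is also a CD8 T cell marker, and 4 of the 6 measured genes of that marker list were 2-fold or more lower at their measured values. Among these, Eomes and Crtam were below the detection level in the NKT-labelled library, with bounds of only 1.69-fold for Eomes and 1.55-fold for Crtam. The list's summed linear signal was 48790 in the NKT-labelled library and 77966 in the CD4-labelled library. Nkg7, a gene of cytotoxic granules, was the 1 member of that list that was 2-fold or more higher, by 1.58, and without it the sums were 1496 in the NKT-labelled library and 62176 in the CD4-labelled library. CD8 T cells of lymph nodes also carry Ccr7, and the part of these markers in the homing values was not tested.

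**Figure D3:**
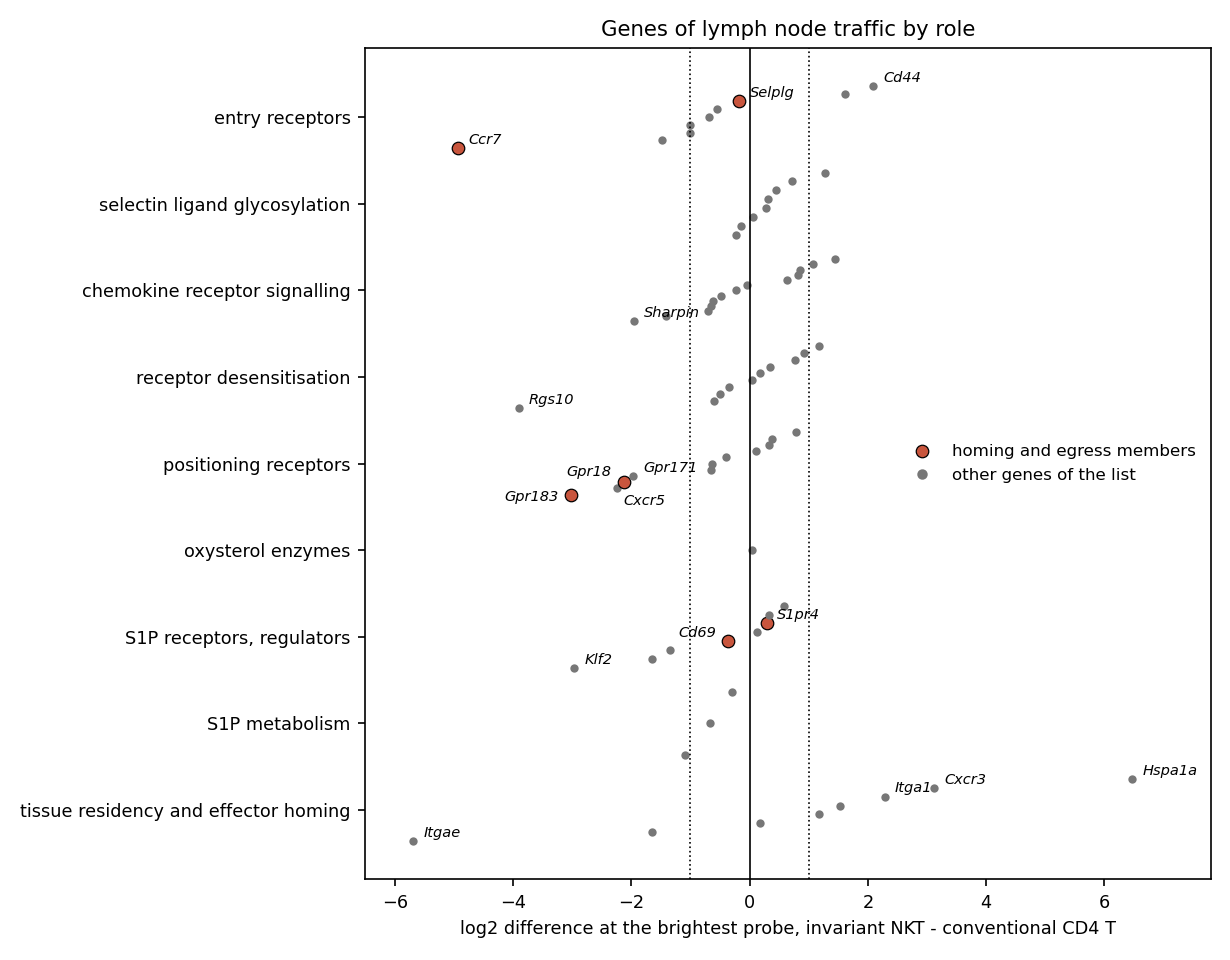
Log2 difference at the brightest probe, invariant NKT minus conventional CD4 T (x axis), of each detected gene of the 9 lists of lymph node traffic (rows), with the homing and egress members in red, other genes in grey and 2-fold marked by dotted lines. In the positioning row 4 genes lie below the lower 2-fold line and 0 above the upper one, and in the tissue residency row 5 lie above it.

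Markers of other cells were shifted too. Red cell markers were 2-fold or more higher at 3 of 3 measured genes, with a summed linear signal of 74606 in the NKT-labelled library and 1241 in the CD4-labelled library. Hepatocyte markers were higher at 7 of 8, with 13755 in the NKT-labelled library and 1234 in the CD4-labelled library. All 8 were detected in the NKT-labelled library and 0 in the CD4-labelled library, which does not match a sort from lymph nodes. The source of these transcripts was not tested. B cell markers, whose cells express Gpr183 and Cxcr5, were higher at 0 and lower at 1 of the 4 detected, with 2384 in the NKT-labelled library and 3376 in the CD4-labelled library. Monocyte and macrophage markers were higher at 2 and lower at 1 of the 3 detected. Their sums were 19943 in the NKT-labelled library and 4509 in the CD4-labelled library. Cebpb alone made up most of both sums, with log2 signals of 14.17 in the NKT-labelled library and 11.74 in the CD4-labelled library. Lyz2 differed by 1.94 and -0.52 at its 2 probes, and Ctss by -1.19. NK cell markers were higher at 1 and lower at 1 of the 3 detected, with sums of 9314 in the NKT-labelled library and 4391 in the CD4-labelled library. The lower gene, Eomes, was below the detection level in the NKT-labelled library, with a bound of 1.69-fold. Regulatory T cell markers were higher at 2 and lower at 1 of the 4 detected, with sums of 9398 in the NKT-labelled library and 3972 in the CD4-labelled library. Of the higher genes, Il2ra was detected in the NKT-labelled library alone, with a bound of 1.35-fold. Dendritic cell markers were lower at 1 of 2, with sums of 976 in the NKT-labelled library and 1636 in the CD4-labelled library. Pecam1, the 1 measured gene of the stroma and endothelium list, differed by -2.23 and -1.90 at its 2 probes. Neutrophil markers were detected at 4 of 5 genes in the NKT-labelled library and 0 of 5 in the CD4-labelled library, with sums of 2488 in the NKT-labelled library and 779 in the CD4-labelled library. Their part in the homing values was not tested.

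The genes nearest to each member in the plane of the 2 log2 signals are given as a description over 2 samples, which is too few to speak of a shared pattern. Nearest to Ccr7, whose place rests on 1 signal below the detection level, were Pdlim4 at a distance of 0.18 and Tdrp at 0.46. Nearest to Gpr183 were Emb at 0.13 and Acss1 at 0.28, and to Gpr18 Arhgef18 at 0.11 and Il7r, the IL-7 receptor chain, at 0.22. Selplg lay next to Rab8a at 0.09 and Anxa6 at 0.10, S1pr4 next to Atg2a and Nipsnap3b at 0.04 each, and Cd69 next to Gimap6 at 0.06 and Ldb1 at 0.07.

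The split between these genes is a feature of the value table. In the non-normalized table Ccr7 had an intensity of 5439 in the NKT-labelled column and 5110 in the CD4-labelled column. Gpr183 had 6587 in the NKT-labelled column and 6726 in the CD4-labelled column. Gpr18 had 11212 in the NKT-labelled column and 12277 in the CD4-labelled column. None of the 25697 probes of that table was 2-fold apart, those of the invariant NKT markers among them. Which of the 2 tables holds the signals of the invariant NKT sample is not known.

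**Figure D4:**
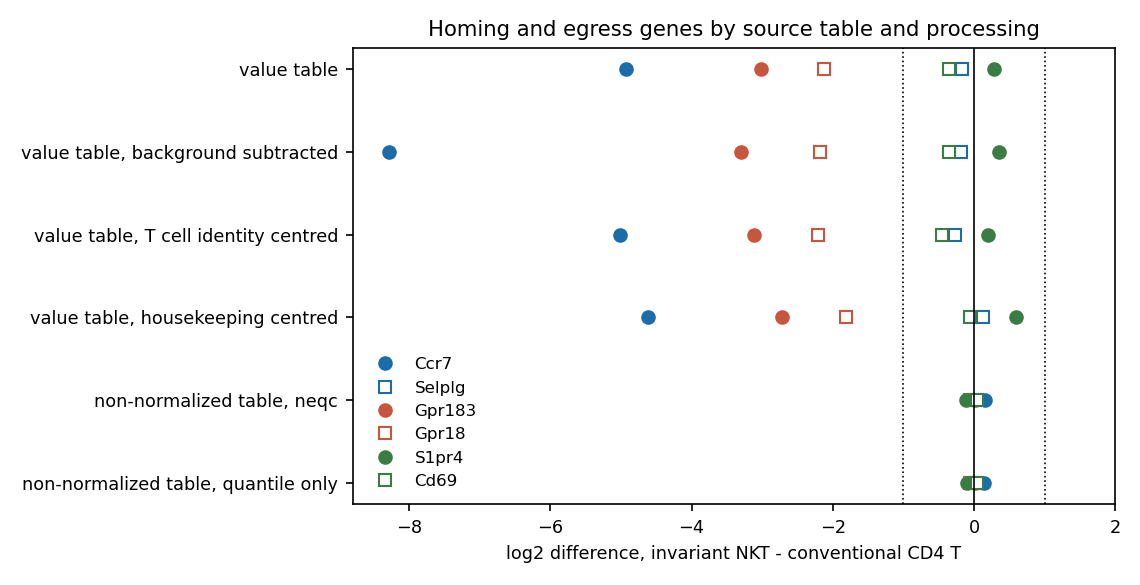
Log2 difference, invariant NKT minus conventional CD4 T (x axis), of the 6 measured homing and egress genes under 6 settings (rows), with 2-fold marked by dotted lines. Ccr7, Gpr183 and Gpr18 lie below the lower 2-fold line in the 4 rows of the value table, and all 6 genes lie near 0 in the 2 rows of the non-normalized table.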

How the data were processed

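The submitters' processing notes name GenomeStudio 2009.2; their normalisation and filter were not given in the sources used here. Per the file headers, the non-normalized table that the authors deposited gives an intensity and a detection p-value for each probe. The deposited value table holds log2 signals whose sorted columns are equal within 0.00025, as quantile normalisation leaves them. Background appears not to have been subtracted in either, since the lowest log2 value was 6.89 and the non-normalized medians were 193 and 197. This was not stated in the sources used here. If so, folds of dim genes are understated. Of the non-normalized lines, 2 held no probe and were left out. Probe symbols came from the platform annotation, with 11155 probes named once, 0 with several symbols and 711 unnamed. The probe with the highest mean signal stood for a gene, and 2-fold was the size used for counts. Counts used measured differences, also for genes below the detection level in 1 library. A bound sets the brighter value against the detection level, or against the dimmer value where that is higher. With such genes at their bounds, pathway genes 2-fold or more apart numbered 26 in place of 27. Fold calls were run on simulated shifts well past 2-fold with little noise, which checks the calculation and not how reliable the calls are in these data. Alternatives used background subtraction, other centring, and neqc (offset 16) from limma 3.58.1, run under R 4.3.3; tables came from Python 3.11.15 with pandas 2.3.3. The members, lists and named genes (each member, a fixed set, and the 3 largest differences of each list) were chosen with earlier results of these data known. Ubac2 and Dock9 were added for their position, and Eif2s3y, Kdm5d and Uty as a check of the labels.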

Additional observations from a re-analysis of the deposited data

Results flagged for a closer look

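In the second non-normalized column, which the comparisons above do not use, 3 members that were low in the NKT-labelled library of the value table were bright, each with a detection p of 0. Their intensities were 5439 for Ccr7, 6587 for Gpr183 and 11212 for Gpr18, against an array median of 197. That column is labelled as the invariant NKT sample, and the reason for the conflict was not tested.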

How the results depend on the processing

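Of 57 values recomputed under other settings, 46 moved by less than the SD between probes of a gene or, for counts, by less than 1.5 times. Of these 46, 7 turned in sign, all of them differences of Selplg, S1pr4 or Cd69 under 2-fold. The 46 include these 3 genes in the non-normalized table, where no probe was 2-fold apart. They also include the count of members 2-fold or more higher, which was 0 in every setting. The tally is therefore no measure of how stable the results are. With neqc on the non-normalized table the log2 differences became 0.15 for Ccr7, 0.0144 for Gpr183 and -0.0590 for Gpr18, and with quantile normalisation alone 0.146 for Ccr7, 0.0141 for Gpr183 and -0.0583 for Gpr18. Under both, the members 2-fold or more lower numbered 0 in place of 3, and pathway genes 2-fold or more apart numbered 0 in place of 27; the 2 columns of that table have a Pearson's r of 0.997 across probes, on log2 intensities. With background subtracted Ccr7 differed by -8.29, a size set by the floor of 16. Members 2-fold or more lower stayed at 3 under every value-table setting. Centring on housekeeping genes moved the median of all detected genes to 0.23 and on T cell identity genes to -0.16; Selplg then differed by 0.13 and -0.27, against -0.18 before. Pathway genes 2-fold or more apart ranged between 24 and 35 over the value-table settings. No paired analysis was possible because each group holds 1 array. Ccr7 has only a bound, since its signal in the NKT-labelled library lies below the detection level.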
